A study of Homo sapiens with 15 samples.

Results

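DDIT4, DDIT4L, SESN1, SESN2, SESN3, DEPTOR, TSC1 and TSC2 encode proteins that hold back the kinase complex mTORC1. They were followed across every group of a drug experiment in C42B cells and were taken by gene symbol from the array annotation. All 8 were measured, each by 1 probe set, among 17687 genes with a symbol. DDIT4 and the 3 sestrins were picked because of their levels on these same arrays. Their values are therefore a description, with standard errors and 95% intervals and no p-value. DDIT4L, DEPTOR, TSC1 and TSC2 belong to the same pathway and were not picked for their values.

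C42B is an established castration-resistant human prostate cancer line derived from LNCaP. All wells held RPMI medium with 10% fetal bovine serum for 3 days and were then exposed to drug or vehicle for 6 h, so serum was present in every group. The groups were 10 µM enzalutamide with 15 µM PF-543 (3 arrays), 10 µM enzalutamide with 15 µM ABC294640 (3 arrays), 10 µM enzalutamide (2 arrays), 15 µM PF-543 (3 arrays), 15 µM ABC294640 (1 array) and the vehicle dimethyl sulfoxide, DMSO, at 0.125% (3 arrays). Enzalutamide blocks the androgen receptor, PF-543 inhibits sphingosine kinase 1, and ABC294640 inhibits sphingosine kinase 2. Separate cultures are not stated for the replicate arrays, so standard errors and p-values measure the spread between these arrays, which may be technical. For ABC294640 alone, with 1 array, the pooled spread of the other groups stood in for its own.

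mTORC1 drives protein synthesis and growth when amino acids, energy and growth factors are plentiful, and it is switched on at the lysosome by the small GTPase Rheb. TSC1 and TSC2 form the complex that turns Rheb off. DDIT4 (also called REDD1) and its relative DDIT4L (REDD2) act through that complex, the sestrins pass on a lack of leucine and other stress, and DEPTOR binds mTOR itself.

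Expression is given as log2 values that the authors made with RMA, which normalizes Affymetrix arrays and summarises the probes of a probe set. A log2 difference of 1 is a 2-fold difference in signal. The cells carried the markers of their label. All 8 measured markers of the prostate lineage lay above the array median, against 1 of 5 stromal, 0 of 4 blood and 0 of 3 neuroendocrine markers. The 3 DMSO arrays stood apart on the first principal component over all genes, which held 15.3% of the variance. The 12 arrays of treated cells lay between -11.6 and 0.03 on it, and the DMSO arrays between 18.9 and 24.8. DDIT4 (r = -0.80), SESN2 (-0.81), SESN3 (-0.69) and DEPTOR (-0.64) moved with that component over the 15 arrays. The part of this shift in their differences from DMSO was not tested, and the drug effects on these 4 genes are therefore also given from group means without any DMSO array. Their standard errors, intervals and p-values still drew on the spread of all 15 arrays, DMSO included.

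DDIT4 was higher with enzalutamide, higher by about as much with PF-543, and highest with both. Its induction is known from hypoxia, glucocorticoids and the integrated stress response. Its log2 values were 13.93, 14.11 and 14.09 with enzalutamide plus PF-543, and 13.02, 12.86 and 12.79 with enzalutamide plus ABC294640. They were 12.86 and 12.89 with enzalutamide, 12.87, 12.60 and 12.85 with PF-543, 11.81 with ABC294640, and 11.94, 11.68 and 11.43 with DMSO. The levels formed 3 tiers that did not overlap: the combination with PF-543 on top, the other 3 groups that had received enzalutamide or PF-543 in the middle, and ABC294640 with DMSO at the bottom. Over the 15 arrays DDIT4 spanned 2.68 log2 units, and 3 of the 17687 genes spanned more. In bulk RNA such a difference cannot be told apart between more cells expressing the gene and more RNA per cell.

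The bases upstream of the annotated start of DDIT4 are shown because DDIT4 had the widest range of the 8 genes. They come from RefSeq on GRCh38.p14 (chr10:72273674-72273923, plus strand), with motif matches in capitals.
DDIT4: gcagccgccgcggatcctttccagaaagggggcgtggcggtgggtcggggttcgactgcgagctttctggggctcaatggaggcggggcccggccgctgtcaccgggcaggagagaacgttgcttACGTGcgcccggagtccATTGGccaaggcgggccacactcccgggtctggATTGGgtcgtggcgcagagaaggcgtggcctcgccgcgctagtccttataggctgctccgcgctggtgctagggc
The window searched for all genes also took in the first 50 bases after the start, which are not printed. The motifs were the CEBP-ATF element TGATGNAA, the hypoxia response core ACGTG, the CCAAT box CCAAT, the antioxidant response element TGACNNNGC and the forkhead element GTAAACA, read on both strands. In DDIT4, ACGTG began at position -125, counted from the start, and CCAAT was found on the other strand, printed as ATTGG, at -108 and -75. Of 34796 distinct RefSeq promoters of this length, 21.4% held ACGTG and 34.6% held CCAAT, so both are common. TGATGNAA (3.63% of promoters), TGACNNNGC (13.3%) and GTAAACA (3.42%) had no match in this window.

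**Figure D1:**
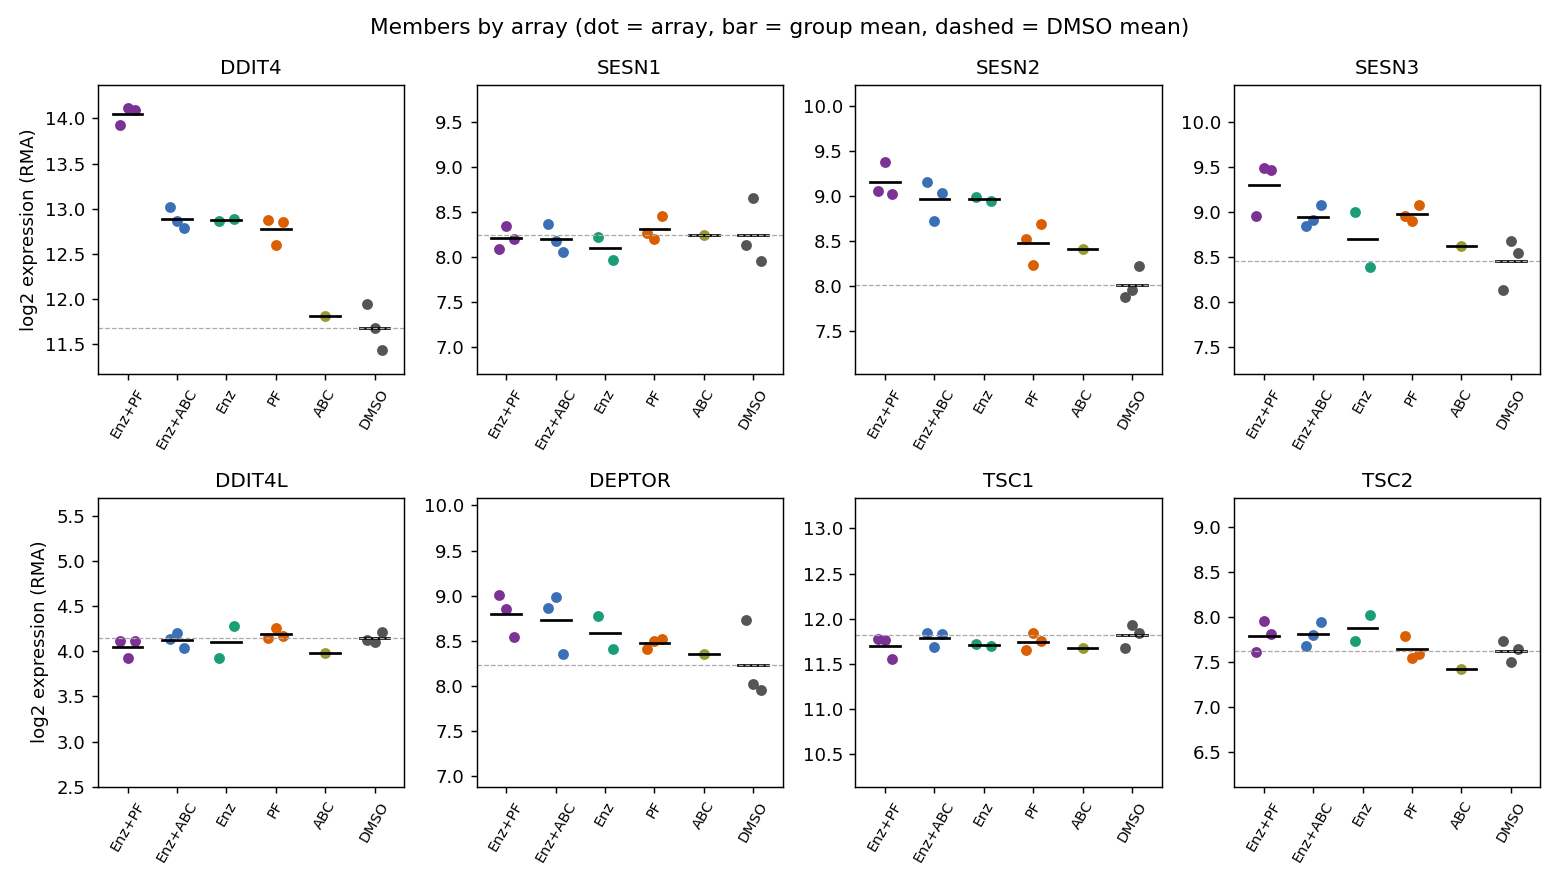
Log2 expression of the 8 genes on each of the 15 arrays, with enzalutamide as Enz, PF-543 as PF and ABC294640 as ABC. Each dot is an array, each bar a group mean and the dashed line the DMSO mean, and every panel spans the same number of log2 units. DDIT4 lies at 13.93 or above on the 3 arrays of enzalutamide plus PF-543 and at 11.94 or below with DMSO.

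Relative to DMSO, DDIT4 differed by log2 2.36 with enzalutamide plus PF-543 (SE 0.13, 95% interval 2.08 to 2.64, 5.13-fold). With enzalutamide plus ABC294640 it differed by 1.21 (SE 0.13, interval 0.93 to 1.48). With enzalutamide alone the difference was 1.19 (SE 0.14, interval 0.88 to 1.5, 2.28-fold), and with PF-543 alone it was 1.09 (SE 0.13, interval 0.81 to 1.37, 2.13-fold). The ABC294640 array differed from DMSO by 0.13 (interval -0.27 to 0.52), although on the first principal component it lay at -2.21, among the treated arrays. Without DMSO arrays, enzalutamide added 1.27 to PF-543 (SE 0.13) and 1.08 to ABC294640 (SE 0.18), and PF-543 added 1.17 to enzalutamide (SE 0.14). These were about as large as the differences from DMSO. ABC294640 added 0.015 to enzalutamide (interval -0.30 to 0.33).

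The inhibitors could be set side by side at 15 µM. How far each inhibited its kinase at that concentration was not measured on these arrays, so equal inhibition cannot be assumed. With enzalutamide present, DDIT4 averaged 14.04 ± 0.10 with PF-543 and 12.89 ± 0.12 with ABC294640 (SD, n = 3 each), a difference of log2 1.15 (interval 0.88 to 1.43). Without enzalutamide it averaged 12.77 ± 0.15 with PF-543 (SD, n = 3) and was 11.81 on the ABC294640 array, a difference of 0.96 (interval 0.57 to 1.36).

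Among the sestrins, SESN2 followed enzalutamide more than PF-543. SESN2, a leucine sensor that binds the GATOR2 complex, had log2 values of 9.06, 9.38 and 9.02 with enzalutamide plus PF-543 and 9.15, 8.72 and 9.03 with enzalutamide plus ABC294640. It had 8.99 and 8.94 with enzalutamide, 8.52, 8.24 and 8.69 with PF-543, 8.41 with ABC294640, and 7.88, 7.96 and 8.22 with DMSO. Every array with enzalutamide lay above every array without it, the nearest being 8.72 with enzalutamide plus ABC294640 and 8.69 with PF-543. The PF-543 arrays were above the DMSO arrays by as little as 0.02, 8.24 against 8.22.

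The difference of SESN2 from DMSO was log2 1.13 with enzalutamide plus PF-543 (SE 0.15, interval 0.81 to 1.46, 2.19-fold). It was 0.95 with enzalutamide plus ABC294640 (SE 0.15) and 0.95 with enzalutamide alone (SE 0.17, interval 0.58 to 1.31). For PF-543 alone it was 0.46 (SE 0.15, interval 0.14 to 0.79), and for the ABC294640 array 0.39 (interval -0.07 to 0.85). Without DMSO arrays these effects were smaller: enzalutamide added 0.67 to PF-543 (interval 0.34 to 1.0) and 0.56 to ABC294640 (interval 0.10 to 1.02), and PF-543 added 0.19 to enzalutamide (interval -0.18 to 0.55). ABC294640 added 0.0017 to enzalutamide (interval -0.36 to 0.37). In the order of group means, enzalutamide plus PF-543, enzalutamide plus ABC294640 and enzalutamide did not differ beyond their spread. Between enzalutamide and PF-543 the gap was 0.48 (interval 0.12 to 0.85).

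The SESN2 promoter is shown beside that of DDIT4 because both genes were high with enzalutamide. Its upstream bases (RefSeq, GRCh38.p14, chr1:28259268-28259517, plus strand) held CCAAT on the other strand at -151 and -86, in capitals, and no match to the other motifs.
SESN2: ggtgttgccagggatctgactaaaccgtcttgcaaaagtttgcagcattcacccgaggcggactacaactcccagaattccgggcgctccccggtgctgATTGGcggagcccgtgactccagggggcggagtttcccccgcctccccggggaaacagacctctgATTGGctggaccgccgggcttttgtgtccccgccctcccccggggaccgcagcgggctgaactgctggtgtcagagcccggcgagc
SESN3 and TSC1 had no match to any of the motifs in their windows, nor had DDIT4L. SESN1 has 3 RefSeq promoters, of which the second held CCAAT at -90 and TGACNNNGC at -159, both on the other strand, and the third CCAAT at -75.

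SESN3 was more variable. It encodes a sestrin known as a FOXO target. Its log2 values were 8.95, 9.48 and 9.46 with enzalutamide plus PF-543, 8.84, 8.91 and 9.07 with enzalutamide plus ABC294640, and 9.0 and 8.39 with enzalutamide. They were 8.95, 8.90 and 9.07 with PF-543, 8.62 with ABC294640, and 8.13, 8.68 and 8.54 with DMSO. All arrays with PF-543 and all with enzalutamide plus ABC294640 lay above all DMSO arrays, while the enzalutamide arrays fell on both sides of the highest DMSO array. The difference from DMSO was log2 0.85 with enzalutamide plus PF-543 (SE 0.19, interval 0.44 to 1.25, 1.80-fold), 0.49 with enzalutamide plus ABC294640 (interval 0.09 to 0.89), and 0.52 with PF-543 (SE 0.19, interval 0.12 to 0.93). For enzalutamide it was 0.25 (interval -0.21 to 0.70), and it was -0.06 without enzalutamide replicate 1 and 0.55 without enzalutamide replicate 2. Without DMSO arrays, PF-543 added 0.60 to enzalutamide (interval 0.15 to 1.05), from 0.30 to 0.91 as single arrays were left out, and enzalutamide added 0.32 to PF-543 (interval -0.08 to 0.73). ABC294640 added 0.25 to enzalutamide (interval -0.21 to 0.70), and enzalutamide added 0.32 to ABC294640 (interval -0.25 to 0.89).

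SESN1, another sestrin, showed no such pattern. It lay at 8.09 to 8.34 with enzalutamide plus PF-543, 8.06 to 8.36 with enzalutamide plus ABC294640, 7.97 and 8.22 with enzalutamide, 8.20 to 8.45 with PF-543, 8.24 with ABC294640 and 7.96 to 8.65 with DMSO. The groups overlapped, and its 11 differences between pairs of groups ran from -0.15 to 0.12 with intervals that all included 0. In enzalutamide plus PF-543 against DMSO the interval was -0.38 to 0.31.

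Groups that did not overlap were common on these arrays. In enzalutamide plus PF-543 against DMSO, 3 of the 8 genes (DDIT4, SESN2 and SESN3) were higher on every array, beside 12.1% of all genes. The counts were 3 of 8 for enzalutamide plus ABC294640 against DMSO (9.48% of all genes), 2 of 8 for enzalutamide (13.5%) and 3 of 8 for PF-543 (10.2%). In enzalutamide plus PF-543, DDIT4 and SESN2 were higher than with enzalutamide on every array (12.8% of all genes were), and DDIT4, SESN2 and DEPTOR were higher than with PF-543 (7.6%). DDIT4L was lower than with PF-543 on every array (6.99% of all genes were). DDIT4 was the 1 member higher on every array of enzalutamide plus PF-543 than of enzalutamide plus ABC294640 (6.43%). As 4 of the 8 were chosen on these arrays, the counts describe the genes and are no evidence about the list.

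**Figure D2:**
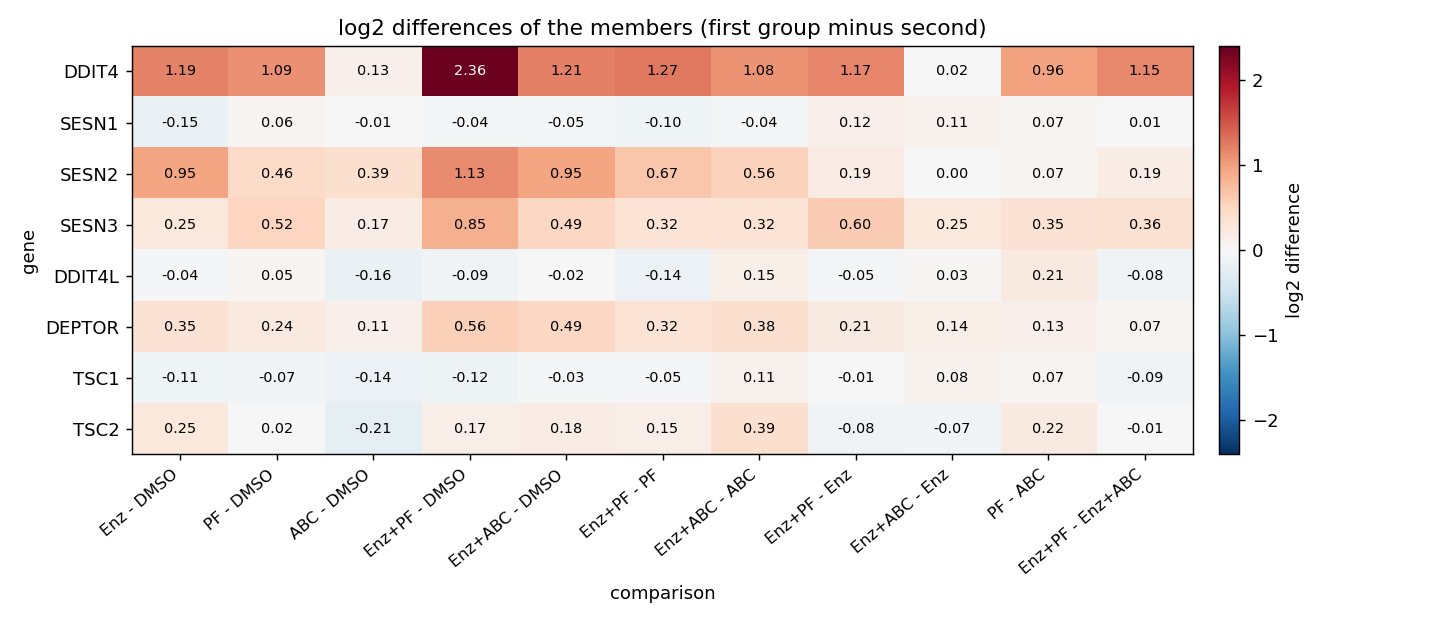
Log2 differences of the 8 genes (rows) in 11 comparisons of groups (columns), the first-named group minus the second, with red for higher and blue for lower. Enz is enzalutamide, PF is PF-543 and ABC is ABC294640. The largest value is the 2.36 of DDIT4 for enzalutamide plus PF-543 against DMSO, and DDIT4 is at 0.02 for enzalutamide plus ABC294640 against enzalutamide.

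Of the 4 genes not picked for their values, 0 passed limma at an adjusted p under 0.05 in any of 13 contrasts, and 3 of the 52 tests had an unadjusted p under 0.05 (DEPTOR in each combination against DMSO, and TSC2 in enzalutamide plus ABC294640 against ABC294640). The share of all genes that passed was 2.02% for enzalutamide plus PF-543 against DMSO, 0.701% for enzalutamide plus ABC294640, 0.311% for enzalutamide and 0.565% for PF-543, and 0% for the ABC294640 array. Against enzalutamide it was 0.0283% for enzalutamide plus PF-543 and 0% for enzalutamide plus ABC294640. It was 0.311% for enzalutamide plus PF-543 against PF-543, 0.0792% for enzalutamide plus ABC294640 against ABC294640, 0.0961% between the combinations and 0.017% for PF-543 against ABC294640.

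DEPTOR, the mTOR-binding inhibitor, came nearest. Its log2 values were 9.01, 8.85 and 8.54 with enzalutamide plus PF-543, 8.86, 8.98 and 8.35 with enzalutamide plus ABC294640, and 8.77 and 8.41 with enzalutamide. They were 8.41, 8.50 and 8.52 with PF-543, 8.35 with ABC294640, and 8.73, 8.02 and 7.96 with DMSO. DMSO replicate 1 lay inside the range of the treated arrays, so the groups overlapped. DEPTOR differed from DMSO by log2 0.56 with enzalutamide plus PF-543 (SE 0.21, limma adjusted p = 0.175) and by 0.49 with enzalutamide plus ABC294640 (SE 0.21, limma adjusted p = 0.28). Its unadjusted limma p was under 0.05 in both contrasts, as was that of 18.7% of all genes in the first and 16% in the second. Without DMSO arrays, PF-543 added 0.21 to enzalutamide (interval -0.30 to 0.72, limma adjusted p = 0.879), and enzalutamide added 0.32 to PF-543 (interval -0.14 to 0.78, limma adjusted p = 0.748). ABC294640 added 0.14 to enzalutamide (interval -0.37 to 0.65), and enzalutamide added 0.38 to ABC294640 (interval -0.27 to 1.03).

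TSC1, the stabilising subunit of the complex, was steady, between 11.55 and 11.93 over all arrays, and its difference from DMSO with enzalutamide plus PF-543 was -0.12 (interval -0.33 to 0.09, limma adjusted p = 0.561). TSC2, the subunit that acts on Rheb, ranged from 7.42 to 8.02. Its lowest value was on the ABC294640 array, against which enzalutamide plus ABC294640 was higher by 0.39 (SE 0.17, limma adjusted p = 0.707). With enzalutamide plus PF-543 TSC2 differed from DMSO by 0.17 (interval -0.10 to 0.43, limma adjusted p = 0.508). DDIT4L lay between 3.92 and 4.28, below the first quartile of every array (4.57 to 4.69), and was brighter than 14.8% of genes. Its difference from DMSO with enzalutamide plus PF-543 was -0.09 (interval -0.32 to 0.13, limma adjusted p = 0.684).

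The promoter at the first RefSeq start of TSC2 (GRCh38.p14, chr16:2047735-2047984, plus strand) is shown for its match to TGATGNAA. No other promoter of the 7 genes searched held that motif. The level of TSC2 did not pass the test. The capitals join TGACNNNGC on the other strand at -121, ACGTG on the other strand at -114 and on this strand at -113, and TGATGCAA at -110, which overlap one another. The ACGTG matches at -114 and -113 are the palindrome CACGTG read on both strands.
TSC2: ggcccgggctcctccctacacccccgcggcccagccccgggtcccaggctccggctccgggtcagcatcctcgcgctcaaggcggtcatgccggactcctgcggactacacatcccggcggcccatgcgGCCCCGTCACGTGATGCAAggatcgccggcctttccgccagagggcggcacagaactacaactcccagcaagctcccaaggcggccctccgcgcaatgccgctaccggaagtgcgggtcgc
No sequence is given for DEPTOR.

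The additivity of enzalutamide and PF-543 was read on the log2 scale, where a sum of effects is a product of folds. The single effects and the combined effect were all taken from the DMSO arrays, which stood apart. The part of that shift in the departures from additivity was not tested. For DDIT4 the effects of enzalutamide (1.19) and PF-543 (1.09) summed to 2.28, and the measured effect of both was 2.36. The sum predicted a level of 13.97, within the 13.93 to 14.11 of the 3 arrays with both drugs. The measured level of 14.04 departed from it by 0.08 (SE 0.19, interval -0.34 to 0.49), that is 5.13-fold measured against 4.86-fold for the product of the single folds. This departure equals what enzalutamide added to PF-543 (1.27) minus its difference from DMSO (1.19). It is therefore no observation separate from the comparisons without DMSO arrays. Adding the drugs' effects in linear signal instead predicted 13.45, below all 3 arrays. No interval was made for that prediction, so linear and log2 addition were not tested against each other. The interval does not settle exact additivity: it allowed between 0.79 and 1.41 times the product.

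For SESN2 the effects summed to 1.41 and the measured effect was 1.13. The predicted level was 9.43, above all 3 arrays (9.02 to 9.38), and the departure was -0.275 (SE 0.23, interval -0.76 to 0.21). By construction this departure is what enzalutamide added to PF-543 (0.67) minus its difference from DMSO (0.945), so it is no separate observation. Linear addition, again without an interval, predicted 9.22, against a measured mean of 9.15. For SESN3 the sum was 0.77 and the measured effect 0.85, a departure of 0.08 (interval -0.53 to 0.68) that ran from -0.23 to 0.38 as single arrays were left out. The departures of the other 5 genes lay between -0.10 and 0.06, with intervals that included 0.

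Over all genes 0 of 17687 passed limma for this departure (0%; 1428 had an unadjusted p under 0.05). Its median was 0.01, and 67% of genes lay within 0.25 of 0. Few genes passed for either drug alone (0.311% with enzalutamide and 0.565% with PF-543), so this share is no benchmark for additivity. In simulated data the fit recovered 5% of log2 departures of 0.5 and 51% of departures of 1, so most departures of 0.5 would be missed. With ABC294640, DDIT4 departed from the sum by -0.11 (interval -0.61 to 0.39) and SESN2 by -0.39 (interval -0.98 to 0.20), each resting on the single ABC294640 array.

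**Figure D3:**
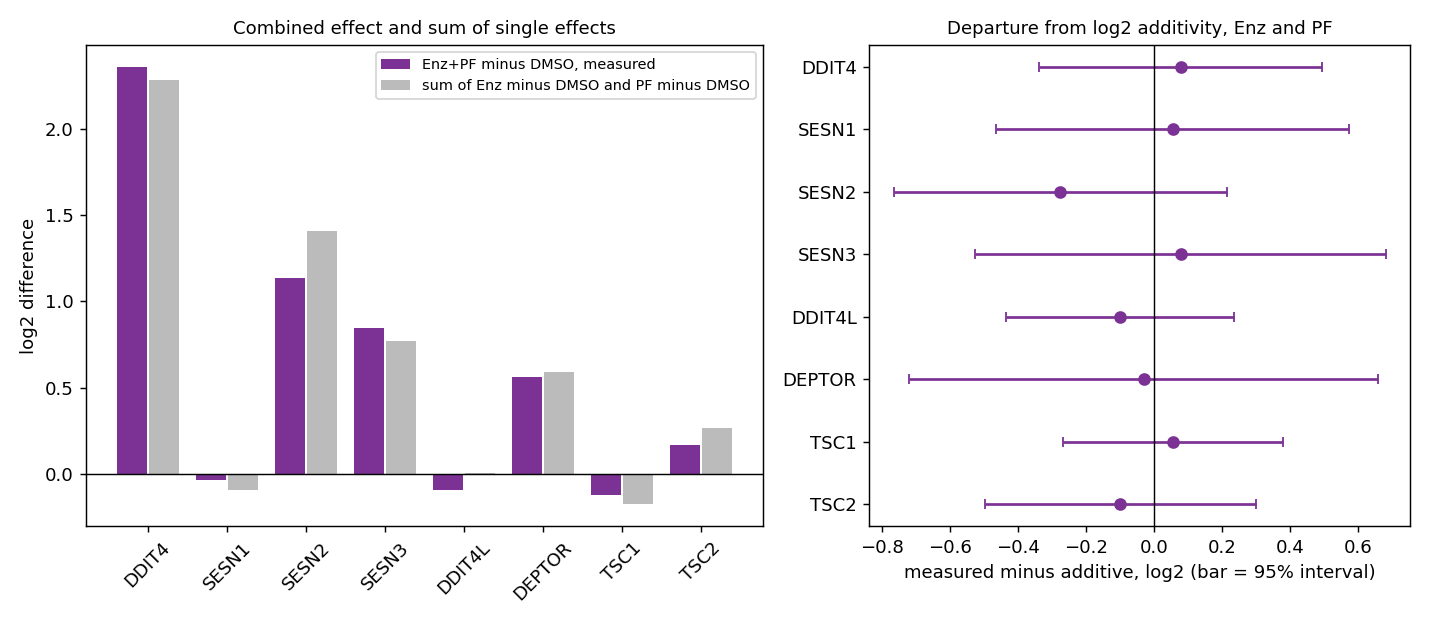
Left, the log2 difference of enzalutamide plus PF-543 from DMSO (purple) beside the sum of the differences of enzalutamide and of PF-543 from DMSO (grey) for the 8 genes. Right, the measured minus the additive value with its 95% interval. Every interval includes 0, and DDIT4 shows 2.36 measured beside 2.28 summed.

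Few other genes of the pathway passed the test. The 7 lists (mTOR complexes, the TSC partner and Rheb, amino acid sensing, AMPK and LKB1, insulin receptor to Akt, mTORC1 substrates, and transcription factors known to act on DDIT4 or sestrins) held 101 genes, of which 90 were measured. With enzalutamide plus PF-543 against DMSO, 5 of 90 rose and 0 fell (5.56%, beside 2.02% of all genes). Of these 5, 3 came from the transcription factor list, where 3 of 14 rose (21.4%). The lists were drawn up with earlier results of these data known, so the pooled share is no evidence about the pathway. With enzalutamide 0 of 90 passed limma (0%, beside 0.311% of all genes), and 18 had an unadjusted p under 0.05, as had 12.9% of all genes. With PF-543 1 rose and 0 fell (1.11%, beside 0.565% of all genes). The median log2 difference over the lists was 0.04 with enzalutamide plus PF-543, 0.04 with enzalutamide and 0.05 with PF-543, against -0.01 over all genes in each. With a robust and trended prior the combination's count was 13 higher and 2 lower, and with only the arrays of the comparison it was 2 higher. It was 2 without replicate 2 of enzalutamide plus PF-543, and 3 without replicate 1 or 3 of that group, replicate 1 or 2 of DMSO, or replicate 3 of PF-543. The share of all genes past the threshold was not counted under these other settings, so these counts have no background beside them.

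None of the 10 genes of the mTOR complexes, the 3 of TSC partner and Rheb, the 26 measured of amino acid sensing or the 15 measured substrates and effectors passed limma in enzalutamide plus PF-543 against DMSO, with 6, 1, 7 and 3 at an unadjusted p under 0.05, as were 18.7% of all genes. In the AMPK and LKB1 list 1 of 10 rose: CAB39, the scaffold that activates LKB1, was at 10.77, 10.90 and 10.89, against 10.30, 9.88 and 10.39 with DMSO (log2 0.66, SE 0.12, limma adjusted p = 0.0179). In the insulin receptor list 1 of 12 rose, the kinase AKT2 (log2 0.46, SE 0.10, limma adjusted p = 0.0422), which passed in 8 of 24 other settings. CAB39 passed in 21 of 24. Both genes moved with the DMSO arrays that stood apart, whose part was not tested: AKT2 averaged 12.48 to 12.55 in the 5 treated groups and 12.08 with DMSO, and CAB39 10.60 to 10.85 in the treated groups and 10.19 with DMSO. Enzalutamide plus PF-543 differed from enzalutamide by 0.06 for either gene, and from PF-543 by 0.04 for AKT2 and 0.23 for CAB39. IGF1R, the growth factor receptor with the lowest value of all lists, was at -0.75, did not pass and was chosen after its value was seen. It averaged 8.27 with enzalutamide plus PF-543, 8.18 with enzalutamide plus ABC294640 and 8.095 with enzalutamide. Without enzalutamide it averaged 8.95 with PF-543 and 9.02 with DMSO, and was 8.77 on the ABC294640 array.

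**Figure D4:**
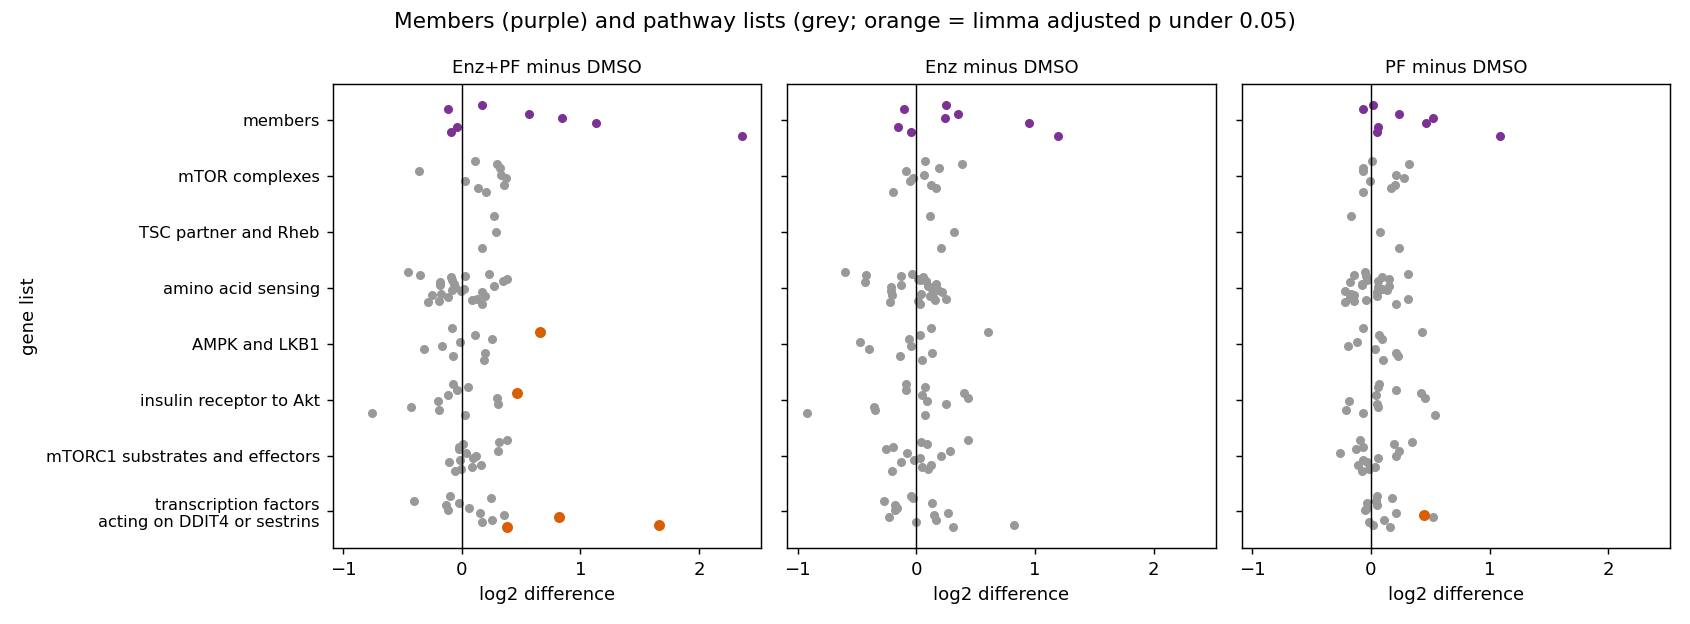
Log2 differences from DMSO of the 8 genes (purple) and of the 90 measured genes of 7 pathway lists (grey) with enzalutamide plus PF-543, enzalutamide (Enz) and PF-543 (PF). Orange marks list genes past a limma adjusted p of 0.05, which number 5, 0 and 1. No list gene exceeds DDIT4 in any of the panels, but DDIT4 was picked for its levels on these arrays, so this is a description only.

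Of the 14 measured transcription factors, 3 rose with enzalutamide plus PF-543 against DMSO. This list was drawn up with earlier results known, so its direction is not independent evidence. DDIT3 (CHOP), a stress-induced factor downstream of ATF4, was at 9.04, 9.53 and 9.31 with enzalutamide plus PF-543, 8.56 and 8.36 with enzalutamide, 7.73, 7.33 and 7.90 with PF-543, and 7.80, 7.74 and 7.36 with DMSO. It was higher by 1.66 than with DMSO (SE 0.19, limma adjusted p = 0.00114) and by 1.64 than with PF-543 (limma adjusted p = 0.00167), past the threshold in 24 of 24 other settings each. With PF-543 alone its difference from DMSO was 0.02, unlike the 1.09 of DDIT4, though the difference between the genes was not tested. Its departure from additivity was 0.81 (SE 0.29, limma adjusted p = 0.525).

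ATF3, another stress-induced factor, was at 8.42, 8.36 and 8.39 with enzalutamide plus PF-543, 7.22 and 7.46 with enzalutamide, 8.25, 7.78 and 8.25 with PF-543, and 7.68, 7.54 and 7.50 with DMSO. It rose with enzalutamide plus PF-543 against DMSO (log2 0.82, SE 0.13, limma adjusted p = 0.00846). It also rose against enzalutamide (log2 1.05, limma adjusted p = 0.0305) and against enzalutamide plus ABC294640 (log2 0.82, limma adjusted p = 0.0358), in 12 and 9 of 24 other settings. ATF4, the central factor of the integrated stress response, was at 14.40 to 14.47 with enzalutamide plus PF-543, against 13.98 to 14.18 with DMSO (log2 0.38, SE 0.08, limma adjusted p = 0.0335, past the threshold in 15 of 24 other settings). The combination did not pass against enzalutamide (limma adjusted p = 0.894) or against PF-543 (limma adjusted p = 0.479). ATF4 averaged 14.16 to 14.44 in the treated groups and 14.06 with DMSO. The part of the DMSO arrays that stood apart was not tested. HIF1A, the hypoxia factor, was at 13.94, 14.02 and 13.99 with PF-543, against 13.55, 13.54 and 13.51 with DMSO (log2 0.45, SE 0.09, limma adjusted p = 0.0438, past the threshold in 7 of 24 other settings). With enzalutamide plus PF-543 HIF1A was at 13.93, 13.96 and 13.77 and did not pass against DMSO (log2 0.35, SE 0.09, limma adjusted p = 0.059) or against enzalutamide (limma adjusted p = 0.656). FOXO1 (0.06), FOXO3 (-0.13) and NR3C1, the glucocorticoid receptor (-0.40, limma adjusted p = 0.224), did not pass in enzalutamide plus PF-543 against DMSO.

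**Figure D5:**
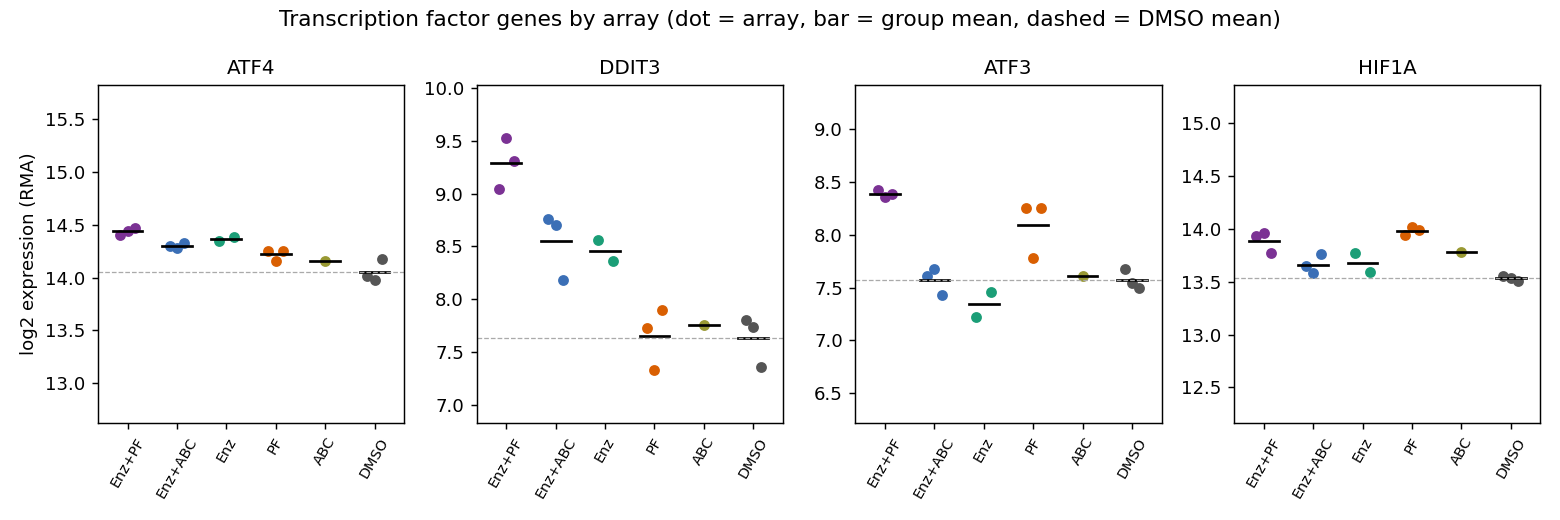
Log2 expression of ATF4, DDIT3, ATF3 and HIF1A on each array, drawn as for the 8 genes, with Enz for enzalutamide, PF for PF-543 and ABC for ABC294640. DDIT3 is at 9.04 or above with enzalutamide plus PF-543 and at 7.90 or below with PF-543. ATF3 is at 7.78 or above on every array with PF-543, and HIF1A is at 13.94 or above with PF-543.

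The genes whose profiles over the 15 arrays lay closest to that of DDIT4 were CCNG2, a cyclin-related gene (Pearson r = 0.951), the secreted factor GDF15 (0.920), the glutathione-degrading enzyme CHAC1 (0.920), the seryl-tRNA synthetase SARS1 (0.914) and the pseudokinase TRIB3 (0.911). Over the 12 arrays without DMSO, r was 0.922 for CCNG2, 0.867 for GDF15, 0.870 for CHAC1, 0.853 for SARS1 and 0.900 for TRIB3. CCNG2 averaged 10.36 ± 0.03 with enzalutamide plus PF-543 (SD, n = 3), 9.82 ± 0.10 with PF-543 (SD, n = 3) and 9.05 ± 0.11 with DMSO (SD, n = 3). Closest to SESN2 were XBP1 (0.945), ATF4 (0.935), CHAC1 (0.934), SLC48A1 (0.919) and KDM6A (0.919), and closest to SESN3 were NUCKS1 (0.888), ZBTB11 (0.881), ZNF24 (0.875), MFSD6 (0.875) and EXOC5 (0.860). Without DMSO r ran from 0.819 (SLC48A1) to 0.897 (XBP1) for the 5 closest to SESN2, and from 0.777 (EXOC5) to 0.872 (MFSD6) for the 5 closest to SESN3. The arrays share their groups and the shift of the DMSO arrays.

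Between the genes themselves, DDIT4 and SESN2 correlated at r = 0.83 over 15 arrays and 0.72 over the 12 without DMSO. After the group means were taken away, r was 0.07 over the 14 arrays in groups of more than 1. DDIT4 and SESN3 correlated at 0.76 over 15 arrays and at -0.18 after the group means were taken away.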

How the data were processed

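Whole-transcript Affymetrix arrays of 15 C42B samples (100 ng of RNA each) were analysed from the deposited log2 values. The authors made them with RMA and Transcriptome Analysis Console 4.02, per the submitters' processing notes. Which RMA variant was run is not given in the sources used. RMA normalizes between arrays, so a change common to most genes would not be seen. Groups came from the labels. The platform annotation gave 1 symbol for 17709 of 21448 probe sets, and 3739 were unnamed here. The brightest probe set was kept for the 20 genes with several, leaving 17687 genes, and no detection calls were used. The number of arrays limits the precision.

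Group means over the 15 arrays were fitted with limma 3.58.1 in R 4.3.3 (9 residual and 3.82 prior degrees of freedom). In each of 13 contrasts p-values were adjusted across every gene (Benjamini-Hochberg, threshold 0.05). The fit was tested on simulated data. The members and the gene lists were chosen with earlier results of these data known. The rule for named genes took, besides the 8 genes, up to 3 genes past the threshold from each list with the largest change, 7 transcription factors in any case, and the 5 genes closest in profile to DDIT4, SESN2 and SESN3. Promoters were taken from RefSeq (GRCh38.p14) and matched for 7 of the 8 genes. Other settings tried were quantile, median-centred and cyclic loess normalization, all probe sets, leaving out the dimmest 25% of genes, a robust and trended prior, array weights, only the arrays of a comparison, a replicate block, comparisons without DMSO, and each array left out. Python 3.11.15 with matplotlib 3.10.9 drew the figures.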

Additional observations from a re-analysis of the deposited data

How the results depend on the processing

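The DDIT4 differences of enzalutamide plus PF-543, enzalutamide and PF-543 from DMSO kept their direction under every setting tried. The settings reuse the arrays on which DDIT4 was picked, so this is no separate evidence. As single arrays were left out, these differences ran from 2.23 to 2.49 for enzalutamide plus PF-543, 1.07 to 1.32 for enzalutamide and 0.96 to 1.22 for PF-543. The departure of DDIT4 from additivity ran from -0.05 to 0.21. Compared without DMSO, the SESN2 effect of enzalutamide was 0.67 and that of PF-543 0.19. SESN3 moved with the enzalutamide replicates: as single arrays were left out, its difference with enzalutamide ran from -0.06 to 0.55, that of enzalutamide plus PF-543 from enzalutamide from 0.30 to 0.91, and its departure from additivity from -0.23 to 0.38. DDIT4L, DEPTOR, TSC1 and TSC2 passed in 0 of the alternatives (limma; lowest adjusted p 0.0625, for DEPTOR).

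The share of all genes past the threshold was not counted in the other settings, so the counts below have no background beside them. The count of pathway genes past the threshold depended on the setting, and the cause was not tested. For enzalutamide plus PF-543 against DMSO it was 3 higher and 1 lower after quantile normalization, 5 higher and 1 lower with array medians centred, 4 higher and 1 lower after cyclic loess, 8 higher and 1 lower without the dimmest 25% of genes, 13 higher and 2 lower with the robust and trended prior, 2 higher with only the arrays of the comparison, and 2 to 5 higher and 0 to 1 lower as single arrays were left out. For PF-543 against DMSO it was 0 after quantile or cyclic loess normalization or with only the arrays of the comparison, 4 higher and 1 lower with the robust and trended prior, and 0 to 1 higher as single arrays were left out. The robust and trended prior also gave 6 higher and 2 lower for enzalutamide against DMSO, and 2 higher and 1 lower for enzalutamide plus PF-543 against PF-543. For enzalutamide plus PF-543 against enzalutamide, and against enzalutamide plus ABC294640, where ATF3 was the 1 gene called, the count was 0 with only the arrays of the comparison and 0 to 1 as single arrays were left out.

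Replicate numbers did not pair the samples: deviations from group means correlated at -0.003 on average between arrays of the same number (-0.04 to 0.07 over 26 pairs). With a replicate block, without the ABC294640 array, pathway genes past the threshold were 0 for PF-543 against DMSO, 3 higher and 1 lower for enzalutamide plus PF-543 against DMSO, 0 against enzalutamide and 0 against enzalutamide plus ABC294640.

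No group had more than 3 arrays, so a distant array could not be tested for. Probe sets were not judged against background, and ABC294640 alone rests on 1 array.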
